A study of Homo sapiens with 6 samples.

Results

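EHF (Ets homologous factor) is a transcription factor of epithelial cells. It belongs to the ETS family, whose members bind DNA at a GGAA core. H3K27ac, an acetylation of histone H3, is found at active enhancers and promoters, and H3K4me1, a methylation of the same histone, is found at enhancers, often on the nucleosomes that flank a bound factor. A binding peak that overlaps no called region of either mark is called unmarked here. The word refers to the deposited lists: a stretch of DNA is missing from a mark list when it did not pass the calling rules, and it may still carry some signal.

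Unmarked EHF peaks made up 1738 of the 5172 peaks of EHF replicate 2 that were examined, or 33.6% (exact 95% interval 32.3% to 34.9%). They were chosen by position alone: a peak of 125 bp that shared no base with any of 34638 H3K27ac regions or 31950 H3K4me1 regions. The whole replicate 2 list holds 5216 peaks, and 44 of them, in a block of 1.5 Mb on the long arm of chromosome 17 with very high scores, were left out by the rule. The other 3434 peaks overlapped at least 1 mark and are called marked. Of these, 3018 lay in H3K27ac alone, 291 in both marks and 125 in H3K4me1 alone.

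The data are chromatin immunoprecipitation sequencing (ChIP-seq) of Calu-3 cells, a human airway epithelial cell line established from a lung adenocarcinoma and grown without any treatment or genetic change named in the labels. There are 2 EHF libraries from 1 antibody, 1 H3K27ac library and 1 H3K4me1 library. There are also 2 input libraries of DNA without immunoprecipitation: Input 1 served both EHF libraries and Input 2 both mark libraries. EHF replicate 2 had 8418631 tags, EHF replicate 1 had 10176290, H3K27ac had 21426939 and H3K4me1 had 12989646. In EHF replicate 1 only 0.155% of tags lay in called peaks, against 0.740% in EHF replicate 2, although replicate 1 had more tags in all. The part of this difference in recurrence was not tested. Whether the EHF replicates were separate cultures is not given in the labels. With 1 library for each mark, no result that rests on a mark has a replicate of that mark, and all comparisons below are descriptions with intervals for counting error, without p-values.

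Unmarked peaks had slightly lower scores than marked peaks. The score is the authors' normalized tag count of a peak, scaled to 10000000 tags per library, and 1 tag of replicate 2 adds 1.19 to it. The median score was 11 in unmarked peaks (quartiles 10 and 13) and 12 in marked peaks (quartiles 10 and 15), a difference of about 1 tag. The scores ran from 6 to 84 in unmarked peaks and from 6 to 76 in marked peaks, so the ranges overlapped almost wholly. The difference was one of proportions. Scores of 6 to 10 were held by 41.9% of unmarked and 26.5% of marked peaks, and scores of 24 or more by 3.34% of unmarked and 8.01% of marked peaks. Taken by score, the unmarked share was 44.5% of the 1640 peaks that scored 6 to 10 (42.0% to 46.9%) and 17.4% of the 333 that scored 24 or more (13.5% to 21.9%). In between it was 30.6% of the 2179 peaks with scores of 11 to 14 and 27.9% of the 1020 with scores of 15 to 23.

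Most unmarked peaks lay over 2000 bp from both marks, and a smaller group lay right beside one. The median distance from the edge of the peak was 17463 bp to the nearest H3K27ac region (95% interval of the median 15396 to 19394 bp) and 17705 bp to the nearest H3K4me1 region (15556 to 19989 bp). The median to the nearer of both was 8680 bp (quartiles 953 and 30854 bp). Within 2000 bp of a mark lay 535 of the 1738 peaks, or 30.8% (28.6% to 33.0%). These distances depend on the region calls. Against the stronger part of each mark list alone, 2219 peaks were unmarked, 18.7% of them lay within 2000 bp of a mark, and the medians were 34376 bp to H3K27ac and 38196 bp to H3K4me1. With unmarked taken as over 1000 bp from every region, the share within 2000 bp was 7.46% of 1300 peaks, and the medians were 27239 and 26807 bp. Of the 535 peaks, 194 were near H3K27ac alone, 206 near H3K4me1 alone and 135 near both. The remaining 1203 peaks, or 69.2%, had neither mark within 2000 bp. Most of the near peaks were very close to a mark: 373 lay 1 to 500 bp from the nearer mark, and 162 lay 501 to 2000 bp from it.

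**Figure D1:**
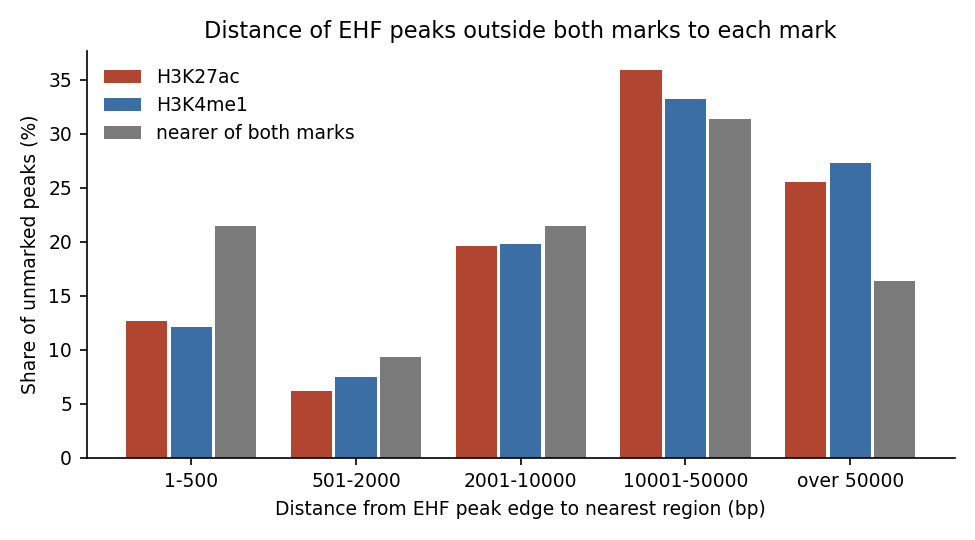
Share of the 1738 unmarked EHF peaks (vertical axis, %) in 5 classes of distance in bp from the peak edge to the nearest H3K27ac region, the nearest H3K4me1 region and the nearer of both. Both marks give nearly the same bars, 12.7% and 12.1% in the closest class and 35.9% and 33.3% at 10001 to 50000 bp.

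At the edge of the rule the score did not separate the sets. The 89 unmarked peaks within 50 bp of a mark region had a median score of 12, and so did the 101 marked peaks that overlapped a region by at most 50 bp. Of the 89, 15 were found in replicate 1, or 16.9% (9.75% to 26.3%). Of the 101, 12 were, or 11.9% (6.29% to 19.8%). The intervals overlapped, and the order was the reverse of that over all peaks, where 9.49% of unmarked and 17.6% of marked peaks were found. The lower recurrence of unmarked peaks was thus not seen at the edge of the rule. Only 75 unmarked peaks stood between mark regions that lay within 2000 bp on both sides, and 460 had such a region on 1 side. Between a pair of H3K27ac regions within 2000 bp there were 19 unmarked peaks.

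The H3K27ac regions beside unmarked peaks were narrower and had lower scores per kb than those that held an EHF peak. The 325 different H3K27ac regions nearest to an unmarked peak within 2000 bp had a median width of 804 bp (95% interval 680 to 912 bp), against 2300 bp (2228 to 2383 bp) in the 3097 regions that held a peak of replicate 2. A wider region has more room to hold a peak, so the width of the second set is partly given by how it was chosen. Per kb, the median H3K27ac score was 27.9 in the regions beside unmarked peaks (26.2 to 30.2) and 45.2 in the regions with a peak (44.4 to 46.1). The part of the choice of regions in this score was not tested, and a region could belong to both sets. Over all 34638 regions the median score per kb was 27.9, equal to that of the regions beside unmarked peaks, and the median width was 1370 bp. For H3K4me1 the per-kb scores lay close together, at 23.95 in the 338 regions beside unmarked peaks and 25.9 in the 412 regions with a peak.

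Recurrence was measured in EHF replicate 1, which the rule did not use. Of the 1738 unmarked peaks, 165 overlapped a replicate 1 peak by at least 1 bp, or 9.49% (8.16% to 10.97%). Of the 3434 marked peaks, 603 did, or 17.6% (16.3% to 18.9%), and over all 5172 peaks the share was 14.8%. The difference, unmarked minus marked, was -8.07 percentage points (95% Newcombe interval -9.90 to -6.15 points). Among marked peaks, the share was 17.8% of those in H3K27ac alone (16.4% to 19.2%) and 18.6% of those in both marks (14.3% to 23.5%). It was 9.60% of the 125 in H3K4me1 alone (5.06% to 16.2%), whose interval takes in the value of the unmarked peaks. Both EHF libraries were called against Input 1, and the part of that shared input in recurrence was not tested.

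The difference was also seen between peaks of like score, and its interval lay below 0 in 3 of 4 score classes. With scores of 6 to 10, 22 of 729 unmarked peaks recurred, or 3.02% (1.90% to 4.53%), against 64 of 911 marked peaks, or 7.03% (5.45% to 8.88%). With scores of 11 to 14 the shares were 9.46% of 666 unmarked and 12.4% of 1513 marked peaks. This was the class in which the interval of the difference took in 0 (-5.56 to 0.016 points). With scores of 15 to 23 they were 19.3% of 285 unmarked and 26.1% of 735 marked peaks (difference -12.1 to -0.99 points). With scores of 24 or more they were 43.1% of 58 unmarked peaks (30.2% to 56.8%) and 58.2% of 275 marked peaks (52.1% to 64.1%). In all 4 classes the unmarked share was lower than that of all marked peaks together. Marked peaks in H3K4me1 alone were few in each class. They recurred at 2.33% of 43, 10.7% of 56, 19.0% of 21 and 20% of 5 by rising score. In each class the wide interval took in both the unmarked share and that of all marked peaks, so it cannot tell which is nearer. Weighted to the scores of the unmarked peaks by class, the marked peaks would have recurred at 13.9%, which leaves a difference of -4.41 points.

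**Figure D2:**
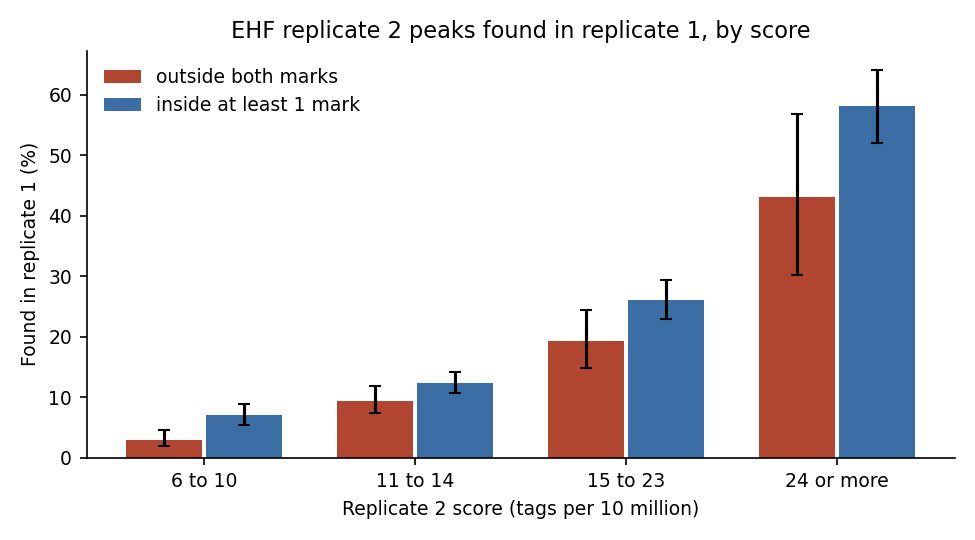
Share of EHF replicate 2 peaks found in replicate 1 (vertical axis, %) in 4 classes of replicate 2 score, for unmarked peaks (left bars) and marked peaks (right bars), with exact 95% intervals for counting error. Recurrence climbs with the score in both sets, to 43.1% of unmarked and 58.2% of marked peaks with scores of 24 or more, and the unmarked bar is the lower one in each class.

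Among the unmarked peaks, recurrence was highest close to a mark. The share found in replicate 1 was 12.6% of the 373 peaks at 1 to 500 bp from the nearer mark (9.41% to 16.4%) and 11.7% of the 162 at 501 to 2000 bp (7.21% to 17.7%). It was 8.85% of the 373 at 2001 to 10000 bp, 8.81% of the 545 at 10001 to 50000 bp and 6.32% of the 285 further away (3.79% to 9.80%). Neighbouring classes had overlapping intervals, and the intervals of the closest and furthest classes overlapped narrowly. Weighted to the score classes of all unmarked peaks, the shares in the same order were 11.03%, 11.2%, 8.95%, 9.41% and 6.77%. With both marks within 2000 bp, 15.6% of 135 peaks recurred (9.89% to 22.8%), and with neither, 8.23% of 1203 did (6.74% to 9.93%). Peaks with mark regions within 2000 bp on both sides did not recur more often than those with 1 on a single side. The shares were 10.7% of 75 (4.72% to 19.9%) and 12.6% of 460 (9.72% to 16.0%).

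**Figure D3:**
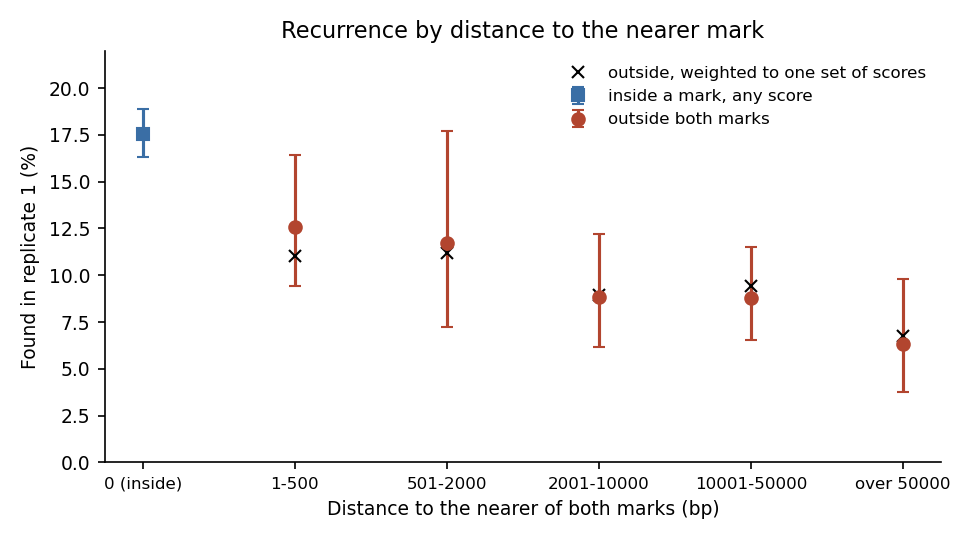
Share found in replicate 1 (vertical axis, %) for marked peaks (square, at 0) and for unmarked peaks (circles) in 5 classes of distance in bp to the nearer mark, with exact 95% intervals. Crosses give the unmarked shares weighted to the score classes of all unmarked peaks. The circles lie at 12.6% in the closest class and at 6.32% in the furthest, all below the 17.6% of marked peaks. Marked peaks score higher, and weighted to the score classes of the unmarked peaks their share would be 13.9%. That value is within the intervals of the classes at 1 to 500 bp and at 501 to 2000 bp.

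The same rule applied to EHF replicate 1 gave a like share of unmarked peaks. Of 1536 replicate 1 peaks outside the chromosome 17 block, 559 were unmarked, or 36.4% (34.0% to 38.9%), against 33.6% in replicate 2, and their intervals overlap. Their median distance was 19854 bp to H3K27ac and 21038 bp to H3K4me1, and 28.4% of them lay within 2000 bp of a mark. Seen from replicate 1, the share found in the other list was again lower for unmarked peaks, with intervals that did not overlap. Of the 559, 159 were found in replicate 2, or 28.4% (24.7% to 32.4%), against 609 of 977 marked peaks, or 62.3% (59.2% to 65.4%), with 50% over the whole list. By replicate 1 score the gap was widest at low scores and closed at high ones, where unmarked peaks were few. With replicate 1 scores of 6 to 8, 10.4% of 251 unmarked peaks and 43.6% of 275 marked peaks were found in replicate 2. With scores of 12 to 14 it was 72.9% of 48 unmarked (58.2% to 84.7%) and 80% of 165 marked peaks. With scores of 15 or more it was 28 of 29 unmarked and 95 of 100 marked peaks.

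At the 165 recurring unmarked sites the peaks of both replicates were as closely aligned as at recurring marked sites, within the measures given here. The centres of the 2 replicate peaks lay a median of 23 bp apart at unmarked sites and 22 bp at the 603 marked sites, and within 25 bp at 55.2% of unmarked and 55.9% of marked sites. The replicate 1 peak was itself unmarked at 158 of the 165 sites. Their replicate 2 scores had a median of 14 (quartiles 12 and 19), against 17 (12 and 24) at recurring marked sites, while the replicate 1 medians were 11 and 10 in the same order. Across the 165 sites the scores of both replicates were correlated, with a rank correlation (Spearman) of 0.44 and a linear one (Pearson) of 0.71. Without the 2 sites farthest from the replicate 1 median, the linear one was 0.60. At the 603 marked sites the rank correlation was 0.49. Both lists share the input and a lower score limit, sites are not independent, and no p is given. Alignment was measured only where the peaks of both replicates already overlapped. Of all 1738 unmarked peaks, 4 further ones (0.23%) had a replicate 1 peak within 1000 bp without touching it. No such count was made for marked peaks. With EHF peaks extended by 200 bp, unmarked recurrence was 9.61%, against 9.49% without extension. The difference from marked peaks was then -8.97 points, against -8.07 points.

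**Figure D4:**
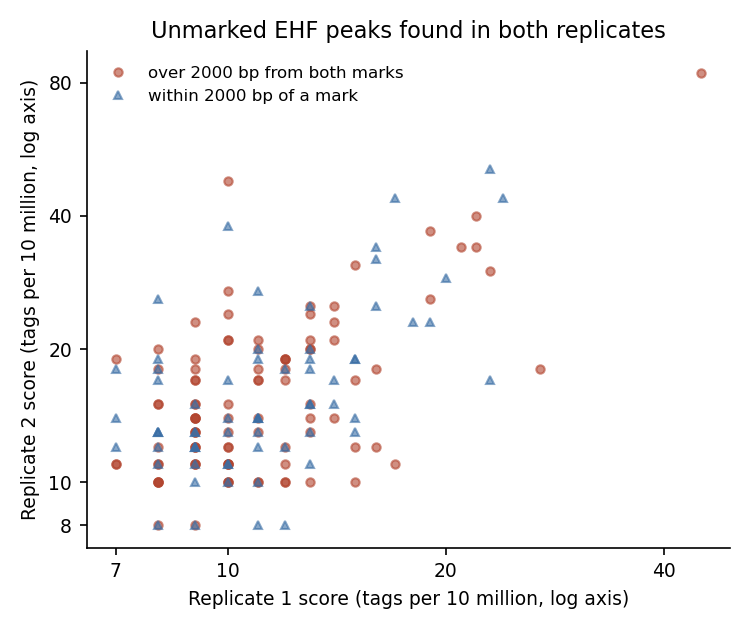
Replicate 2 score against replicate 1 score (both as tags scaled to 10000000, log axes) at the 165 unmarked EHF sites found in both replicates. Circles are the 99 sites over 2000 bp from both marks and triangles the 66 sites within 2000 bp of one. Both kinds spread over the same range, and the single point at the upper right, with scores of 45 and 84, is the site on chromosome 8.

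The strongest unmarked sites by both replicates are given next, ranked by the mean rank of both scores, with hg19 positions of the replicate 2 peak. The first was at 32191946 to 32192070 on chromosome 8. It had a score of 84 in replicate 2 and 45 in replicate 1, the highest of the replicate 1 list, and it stood 4951 bp from an H3K4me1 region and 62034 bp from an H3K27ac region. The chromosome 20 site at 30865345 to 30865469 came second, scored 51 in replicate 2 and 23 in replicate 1, and stood 1153 bp from an H3K4me1 region of 501 bp, the smallest width in that list. Next came the chromosome 18 site at 30764297 to 30764421, with scores of 44 and 24. An H3K27ac region of 501 bp lay 143 bp away from it and an H3K4me1 region 271 bp away. The distance of these leading sites to the nearer mark thus ran from 143 to 4951 bp. Each was below the median of 8680 bp over all unmarked peaks.

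Further down the same ranking, distances stayed mixed. The chromosome 3 site at 184089428 to 184089552 had scores of 40 and 22, 6631 bp from H3K4me1 and 7499 bp from H3K27ac. A pair of chromosome 1 sites scored alike. The one at 160576993 to 160577117, with scores of 34 and 22, was 63465 bp from the nearest mark, and the one at 156186486 to 156186610, with scores of 34 and 21, was 2866 bp from it. The site 2866 bp from a mark was also the least well aligned of the 10, with centres 109 bp apart, against 1 to 35 bp in the other 9. The chromosome 5 site at 130109586 to 130109710 had scores of 37 and 19, with its nearest H3K27ac region at 61745 bp and its nearest H3K4me1 region at 222960 bp. At the other extreme, the sites at 33330021 to 33330145 on chromosome 6 (scores of 44 and 17) and at 48410350 to 48410474 on chromosome 20 (29 and 20) lay 32 and 28 bp from an H3K27ac region. The remaining one, the chromosome 10 site at 70310639 to 70310763, had scores of 30 and 23 and an H3K4me1 region 7331 bp away. Of these 10 sites, 4 had a mark within 2000 bp, and none was more than 63465 bp from one.

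By replicate 2 score alone, 5 of the 10 highest unmarked peaks were found in replicate 1 and 5 were not. The peak at 33478115 to 33478239 on chromosome 17 matched the top score of 84 but had no replicate 1 peak within 368295 bp, and H3K27ac lay 8692 bp from it. The peak at 39044646 to 39044770 on the same chromosome scored 51. It lay 74 bp from H3K27ac and just past the upper end of the block left out. A pair of peaks on chromosome 21, at 9825538 to 9825662 and 9826016 to 9826140, scored 67 and 73 and were 5929169 and 5928691 bp from the nearest mark region. No filter for repeated or poorly mappable sequence was applied here, and the part of such sequence in these scores was not tested. The peak at 133011912 to 133012036 on chromosome 2 scored 44, and its nearest mark was 160516 bp away. Of the 5 that were found, the one not yet described, at 48075775 to 48075899 on chromosome 17, scored 48 in replicate 2 but 10 in replicate 1.

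Very remote unmarked peaks were seldom found again. Of the 133 peaks over 100000 bp from both marks, 5 were found in replicate 1, or 3.76% (1.23% to 8.56%). None of the 59 over 200000 bp away was, which still allows up to 5.08% (3 counts of the 59), or 6.06% by the exact interval. The most remote recurring site, at 22751611 to 22751735 on chromosome 22, was 185989 bp from the nearest mark and scored 11 in replicate 2 and 17 in replicate 1. The chromosome 3 site at 173246989 to 173247113 was 131203 bp from the nearest mark and scored 26 and 19.

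The 25 unmarked peaks over 500000 bp from both marks had a median score of 12 and reached 73. None of the 25 was found in replicate 1 (exact upper limit 13.7%). They fell on 11 chromosomes, with 4 each on chromosomes 10 and 21 and 3 each on chromosomes 7, 8 and 16. Of the 25, 9 lay in the widest stretch of their chromosome without an H3K27ac region and 5 lay beyond the first or last such region of their chromosome. On chromosome 20 that stretch ran from 25605190 to 29611266 and held the peaks at 26188822 to 26188946 and 26190021 to 26190145, with scores of 21 and 29. Among the 10 most remote peaks with scores of at least 12, the peak on chromosome Y at 58985523 to 58985647 was 37830314 bp from the single H3K27ac region of that chromosome. The 4 peaks of chromosome 21 were 4927582 to 5929169 bp from a mark, those on chromosome 16 at 33958772 to 33958896 and 35229187 to 35229311 were 2066627 and 3337042 bp from one, and that on chromosome 7 at 61752925 to 61753049 was 2269909 bp from one. The last 2 of the 10 lay on chromosome 10, at 42357254 to 42357378 and 42366349 to 42366473.

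Unmarked peaks were mostly solitary. Joined across gaps of up to 10000 bp, the 1738 peaks formed 1642 single peaks, 42 pairs and 4 groups of 3. Another replicate 2 peak of any kind lay within 10000 bp of 175 unmarked peaks, or 10.1% (8.69% to 11.6%), against 676 marked peaks, or 19.7% (18.4% to 21.1%). The median distance to the nearest other peak was 95260 bp from unmarked and 60774 bp from marked peaks. A marked peak lay within 10000 bp of 84 unmarked ones, of which 13 recurred (15.5%, 8.51% to 25.01%), against 152 of the other 1654 (9.19%, 7.84% to 10.7%). Of the 4 groups of 3, the one at 133653043 to 133665514 on chromosome 3 had 2 recurring members and the one at 51408107 to 51418179 on chromosome 7 had 1. Neither of the groups on chromosome 17, at 36813658 to 36819578 and 46560974 to 46575704, had any.

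Chromosomes 3 and 20 held more unmarked peaks for their number of EHF peaks than most others. On chromosome 3, 295 of 626 replicate 2 peaks were unmarked, or 47.1% (43.2% to 51.1%), and on chromosome 20, 123 of 280 were, or 43.9% (38.03% to 49.96%). Over all other chromosomes together the share was 30.9% (29.6% to 32.4%). Chromosomes 3 and 20 were singled out after their shares were seen, so the gap to the others is partly given by that choice. The lowest share was 19.6% on chromosome 22 (20 of 102 peaks, 12.4% to 28.6%). Chromosomes 13 and 21 had 39.4% and 38.5%, from 33 and 26 peaks with wide intervals. In the replicate 1 list, chromosome 3 again had the highest unmarked share among the 19 chromosomes with at least 30 peaks, at 54.95% of 222 peaks (48.2% to 61.6%). Chromosome 7 came next with 47.0% of 134, while chromosome 20, at 37.2% of 86 (27.02% to 48.3%), was not set apart from the 33.0% of all chromosomes other than 3 and 20.

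**Figure D5:**
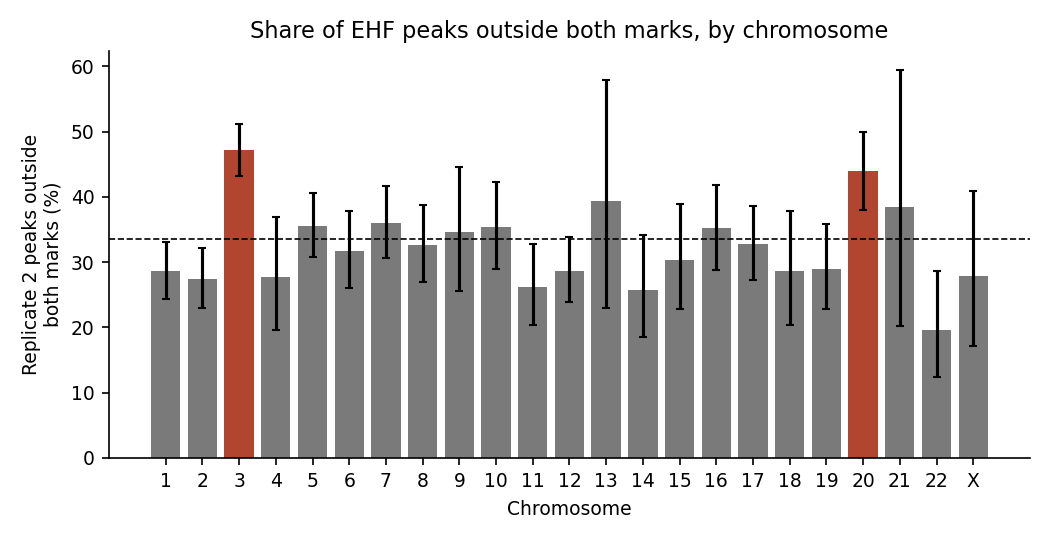
Share of EHF replicate 2 peaks that were unmarked (vertical axis, %) on each chromosome with over 1 peak, with exact 95% intervals, the chromosome 17 block left out. The dashed line is the 33.6% of all peaks. Chromosomes 3 (47.1%) and 20 (43.9%) are coloured and have intervals wholly above it.

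Within these chromosomes EHF peaks of both kinds lay mostly on the side of higher coordinates of the widest H3K27ac gap. On chromosome 3 that gap ran from 90187162 to 93692393, and 255 of the 295 unmarked peaks lay above it and 40 below. For each 100 H3K27ac regions there were 17.8 unmarked peaks above and 3.94 below, against 5.02 over the genome. On chromosome 20 there were 114 unmarked peaks above the gap and 9 below, or 21.3 and 3.20 for each 100 regions. The unmarked share of replicate 2 peaks was 49.6% above (45.2% to 54.0%) and 35.7% below (26.9% to 45.3%) on chromosome 3. On chromosome 20 it was 43.5% of 262 peaks above and 50% of 18 below. Marked peaks were dense on the same sides, at 18.1 above and 7.09 below on chromosome 3 and 27.7 above and 3.20 below on chromosome 20, for each 100 regions. The H3K27ac score per kb moved along, with medians of 37.6 above and 24.5 below on chromosome 3 and 42.4 above and 21.97 below on chromosome 20. The part of this higher tag density in the number of unmarked peaks was not tested. Recurrence of unmarked peaks was 10.98% above the gap of chromosome 3 (28 of 255) and 7.02% above that of chromosome 20 (8 of 114), close to the 9.49% of all unmarked peaks.

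In windows of 10 Mb, the 10 windows richest in unmarked peaks held 371 of them, or 21.3%, out of 289 windows with any replicate 2 peak. The same 10 windows held 794 of all 5172 replicate 2 peaks, or 15.4%. The unmarked share was above the 33.6% of all peaks in 8 of them and below it in 2. Since the windows were picked by their count of unmarked peaks, a raised unmarked share is partly given by that choice. The richest were the window of chromosome 20 from 40 to 50 Mb and that of chromosome 3 from 180 to 190 Mb, with 47 unmarked peaks each, of 97 and 90 peaks in all. On chromosome 3 the window from 150 to 160 Mb had 46 unmarked among 85 peaks, and that from 170 to 180 Mb had 43 among 85. The window of chromosome 17 from 30 to 40 Mb, around the block left out, had 43 unmarked among its 81 remaining peaks. Recurrence of the unmarked peaks varied between chromosomes with small numbers. It was 14.2% on chromosome 5 (19 of 134) and 14.4% on chromosome 7 (16 of 111). It was 1 of 58 on chromosome 19, and 0 of 36 on chromosome 9, which allows up to 8.33% (3 counts of the 36), or 9.74% by the exact interval.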

How the data were processed

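The deposited files are interval lists, 1 for each EHF and mark library, in coordinates of hg19. Bowtie 1.0.0 and HOMER 1.2 are named in the submitters' processing notes. Peaks were called library by library with findPeaks of HOMER against 1 input, per the file headers, with the factor setting for EHF and the histone setting for the marks, at a false discovery rate of 0.01 and at least 4-fold over input and over the local 10000 bp. The deposited score is, per the file headers, the normalized tag count scaled by the authors to 10000000 tags. It carries no input tags and no error. Mark regions were stitched from windows of 500 bp, which sets the shortest region.

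Positions were handled with scipy 1.17.1, pandas 2.3.3 and numpy 2.4.6 under Python 3.11.15, and the overlap, distance and interval functions were tested on simulated data. Overlap meant 1 bp or more. Distances run from peak edge to region edge. Shares carry exact (Clopper-Pearson) and differences Newcombe 95% intervals, and medians order-statistic ones. None covers more than counting error: neighbouring peaks, and tags of a library amplified by PCR, are not independent. A count of 0 allows up to 3 counts, a smaller upper limit than that of the exact interval. Score classes were 6 to 10, 11 to 14, 15 to 23 and 24 or more. Named peaks are the 10 highest in score, the 10 recurring ones with the best mean rank and the 10 most remote with a score of at least 12. The remote recurring sites, the chromosome 20 peaks in the gap, the groups of 3 and the 10 Mb windows were named after their values were seen. So were chromosomes 3 and 20. The members and all lists were chosen with earlier results of these data known. Genes and sequences at the peaks were not analysed here, since the reference tables at hand are of another build, and the input libraries were not used. The lists were not filtered here for repeated or poorly mappable sequence, which bears on the most remote and highest-scoring peaks that did not recur.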

Additional observations from a re-analysis of the deposited data

How the results depend on the processing

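Of 76 alternative values for 7 results, 48 stayed within the 95% interval of the reported value. Only the difference in recurrence has a sign that could change, and it stayed negative in every alternative. The alternatives without chromosomes 3 and 20, without members over 500000 bp from both marks and with scores weighted one by one were chosen after seeing the data. The unmarked share of replicate 2 peaks was 35.9% by peak centre or by 50% of the peak, and 25.1% with mark regions extended by 1000 bp. It was 42.9% with the stronger part of each mark list, 26.1% with scores of at least 12 and 30.9% without chromosomes 3 and 20. The setting without replicate 2 took the replicate 1 peaks instead, of which 36.4% were unmarked. Recurrence was 17.3% with scores of at least 12. The difference in recurrence was -4.41 points weighted by score class and -4.05 score by score, and it ranged from -8.97 to -4.05 points over the alternatives. The median score was 14 with scores of at least 12 and 9 without replicate 2. The median distance to H3K27ac was 15353 bp by centre, 15291 bp by 50% of the peak, 27239 bp with extended regions, 34376 bp with the stronger regions, 15302 bp with scores of at least 12 and 19854 bp without replicate 2. That to H3K4me1 was 26807, 38196 and 13619 bp for extended regions, stronger regions and scores of at least 12, and 21038 bp without replicate 2. The share within 2000 bp of a mark was 34.97% by centre, 35.2% by 50% of the peak, 7.46% with extended regions, 18.7% with stronger regions, 37.8% with scores of at least 12 and 28.4% without replicate 2. Extended, fewer or centre-judged regions change distances by construction. Recurrence cannot be had without replicate 1, in whose list 0.155% of tags lay in peaks. No paired analysis was possible because only the EHF libraries carry replicate numbers and no fit between groups was made.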

Other observations

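The block of chromosome 17 left out of the comparisons also held unmarked peaks. Of its 44 replicate 2 peaks, 24 were unmarked, or 54.5% (exact 95% interval 38.8% to 69.6%), with scores of 13 to 603 and a median of 26. Replicate 1 had 1 peak in the whole block, and 0 of the 44 were found there, so recurrence says nothing about the unmarked ones. In the 1000000 bp on each side of the block, 19 of 40 replicate 2 peaks were unmarked. Replicate 1 had 1 peak in those flanks.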
